A study of Mus musculus with 2 samples.

Results

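Hnf4a, Pax2, Pax8, Emx1, Irx1, Irx2, Tfap2b, Foxi1 and Gata3 are 9 transcription factor genes of the nephron, the tube of the kidney whose successive segments reabsorb, concentrate and acidify the filtrate. They were taken by name from the 32285 genes of the tables, and no threshold on a measured value enters the choice. Each was described by nephron segment and by the presence of Havcr1 (kidney injury molecule 1, a surface receptor of damaged tubule cells). Each symbol had the same identifier in both tables and in the gene annotation.

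Segment identity in the nephron is held by combinations of such factors. Hnf4a is a nuclear receptor of mature proximal tubule cells, and the paired-box factors Pax2 and Pax8 act from the earliest stages of kidney formation and persist along the tubule. The Iroquois factors Irx1 and Irx2 mark the middle nephron, Tfap2b the distal nephron, Gata3 the ureteric bud and its collecting duct, and Foxi1 drives the acid-base genes of intercalated cells, while the homeobox factor Emx1 is best known from the developing forebrain.

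The kidneys were taken on day 14 after ischemia-reperfusion of 1 side by clamping of the renal artery, and every mouse received 4 tamoxifen injections. The control library came from Cre- mice. The haplodeficient library came from Cdh5-CreERT2; Phd3f/+ mice, in which a tamoxifen-inducible Cre under an endothelial promoter acts on 1 floxed allele of Phd3 (the oxygen sensor prolyl hydroxylase 3, gene Egln3), so the tubule cells described here are not the cells in which Cre is driven. Each group was 1 library of the same batch, no uninjured kidney was analysed here, and the number of mice behind a library is not given in the sources used here.

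With 1 library per group there is no replicate check. Levels are unique molecular identifiers (UMIs, single counted RNA molecules) of a gene summed over the cells of a class, as a share of the UMIs of that class scaled to a fixed total (CPM), with exact Poisson 95% intervals, and shares of cells carry exact Clopper-Pearson 95% intervals; both cover counting error and nothing else. After likely doublets were removed the control library held 8737 cells at a median of 8762 UMIs and the haplodeficient library 9222 cells at 5471.5 UMIs. Mitochondrial RNA made up a median of 10.2% and 2.69% of UMIs. In all 28 barcodes passed in both libraries. Egln3 stood at 25.1 CPM (18.2 to 33.7) in the endothelial-like cells of the control library and at 23.3 CPM (18.9 to 28.4) in those of the haplodeficient library. Whether the counted 3′ end lies in the floxed part is not given, so this does not check the genotype. Cells in the classes of the nephron numbered 6206 and 3488, and their makeup differed: the control library held 2311 early and 823 late proximal tubule-like cells, against 319 and 27 in the other. Classes were named from marker genes of clusters built without 62 genes, namely these factors, their relatives, further transcription factors and Havcr1, so that the levels below did not shape the classes directly.

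The promoters of Hnf4a, Tfap2b, Foxi1 and Gata3 are shown first, as the 250 bases before a RefSeq transcript start on GRCm38.p6. Capitals mark matches to short motifs on either strand: those of GATA, HNF1 and AP-2 factors. The letters searched for GATA were AGATAA, and 9.99% of the 32851 promoters of this length in the table hold them. Those for HNF1 factors were GTTAAT, held by 6.43% of these promoters in either direction. Those for AP-2 factors were GCCNNNGGC, held by 13.7%. The first Hnf4a window is chr2:163506607-163506856 on the plus strand and the second is chr2:163546905-163547154, also plus, each before a different start of the gene. The Tfap2b window is chr1:19211804-19212053 on the plus strand, the Foxi1 window chr11:34208090-34208339 on the minus strand and the Gata3 window chr2:9878601-9878850 on the minus strand.
Hnf4a first window: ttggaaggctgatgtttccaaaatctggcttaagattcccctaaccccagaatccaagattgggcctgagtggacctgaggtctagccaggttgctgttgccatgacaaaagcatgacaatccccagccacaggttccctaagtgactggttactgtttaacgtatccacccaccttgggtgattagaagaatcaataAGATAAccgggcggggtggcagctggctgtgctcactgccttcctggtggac
Hnf4a second window: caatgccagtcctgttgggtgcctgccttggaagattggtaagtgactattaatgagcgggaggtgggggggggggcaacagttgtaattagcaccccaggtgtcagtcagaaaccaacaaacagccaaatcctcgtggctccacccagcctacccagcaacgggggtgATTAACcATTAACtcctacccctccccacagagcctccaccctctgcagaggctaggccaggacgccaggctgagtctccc
Tfap2b: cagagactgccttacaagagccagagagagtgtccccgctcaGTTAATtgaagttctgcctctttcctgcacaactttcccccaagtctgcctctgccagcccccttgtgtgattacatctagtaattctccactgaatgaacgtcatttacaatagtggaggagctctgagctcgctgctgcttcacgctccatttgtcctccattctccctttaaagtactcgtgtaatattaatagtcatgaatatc
Foxi1: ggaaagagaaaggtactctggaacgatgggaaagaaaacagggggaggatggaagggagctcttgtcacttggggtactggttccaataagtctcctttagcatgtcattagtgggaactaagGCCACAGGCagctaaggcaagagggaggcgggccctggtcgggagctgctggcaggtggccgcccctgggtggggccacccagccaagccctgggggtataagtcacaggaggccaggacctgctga
Gata3: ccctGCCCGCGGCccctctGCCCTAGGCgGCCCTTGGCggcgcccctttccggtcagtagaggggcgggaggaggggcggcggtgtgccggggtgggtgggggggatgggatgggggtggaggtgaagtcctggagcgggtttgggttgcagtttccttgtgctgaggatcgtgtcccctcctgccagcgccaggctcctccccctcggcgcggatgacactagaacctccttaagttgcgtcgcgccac

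The second Hnf4a window holds a pair of HNF1 matches, at 76 to 81 and at 69 to 74 bases before the start, which do not overlap, and the first holds a GATA match at 47 to 52 bases. Tfap2b has an HNF1 match 203 to 208 bases before the RefSeq start used here, Foxi1 has an AP-2 match at 119 to 127 bases, and Gata3 has 3 AP-2 matches between 213 and 246 bases. The Tfap2b, Gata3 and second Hnf4a windows lie inside the gene models given below, so they precede an internal transcript start and not the start of the gene model. The forkhead letters GTAAACA, present in 3.17% of promoters, the HNF4 letters CAAAGT, present in 12.6%, and the TATA letters TATAAA, present in 12.4%, were not in these 5 windows. Promoter entries were at hand for 8 of the 9 factors, Irx1 being the exception, and such matches describe letters and not binding. Of the windows not printed, those of Pax8 and Emx1 and the Pax2 window at chr19:44756656-44756905 held 0 matches to any of these motifs. The other Pax2 windows and that of Irx2 held 1 each.

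Gene models are those of GENCODE M21 on GRCm38. Hnf4a lies at chr2:163506808-163572910 on the plus strand, Pax2 at chr19:44756045-44837871 on the plus strand and Pax8 at chr2:24420560-24475599 on the minus strand. Emx1 lies at chr6:85187438-85204462 on the plus strand, Tfap2b at chr1:19208914-19238576 on the plus strand, Foxi1 at chr11:34204338-34208089 on the minus strand and Gata3 at chr2:9857078-9890034 on the minus strand. Irx1 (chr13:71957921-71963723, minus) and Irx2 (chr13:72628820-72634198, plus) are neighbours whose starts are 665.097 kb apart with 0 protein-coding genes between them. Hnf4a, Pax2, Pax8 and Gata3 overlap genes of the opposite strand, and Gata3 also the protein-coding 9230102O04Rik of its own strand. How the counting used strand is not given in the sources used here, so reads of these pairs may not be told apart.

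Hnf4a was highest in the proximal tubule. Early proximal tubule-like cells held 198 CPM (193 to 203) in control cells and 217 CPM (202 to 232) in haplodeficient cells, with a Hnf4a UMI in 71.7% and 71.5% of cells, or 17.2% and 18.7% after thinning each cell to 1000 UMIs. In macrophage-like cells, which should lack the gene and had medians of 4800 and 5389 UMIs, 2.27% and 0.435% held one. Late proximal tubule-like cells followed at 180 CPM (172 to 188) in the control, and the 27 cells of the haplodeficient library stood at 143 CPM (104 to 191). The third class in the control was that of injured tubule-like cells, at 86.8 CPM (80.1 to 93.9), and in the haplodeficient library these cells stood at 115 CPM (105 to 126). Thus the control library gave 3 levels whose intervals did not overlap, and in the haplodeficient library early proximal and injured cells did not overlap while the few late cells reached into the latter. The other named nephron classes held 3.7 CPM or less, and macrophage-like cells held 4.0 and 0.59 CPM. Barcodes of 1 to 100 UMIs, which carry free RNA, gave 88.8 CPM of Hnf4a in the control and 14.9 CPM in the haplodeficient library. The part of free RNA in the low levels outside the proximal tubule was not tested.

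Pax8, a paired-box factor, was found in all 8 named nephron classes. Thin limb-like cells led, with 582 CPM (562 to 603) in control cells and 378 CPM (365 to 391) in haplodeficient cells, and 85.9% and 82.4% of them held a UMI. Injured tubule-like cells had 243 and 210 CPM, and late proximal tubule-like cells 224 and 292 CPM. Thick ascending limb-like cells had 189 and 142 CPM, principal or connecting tubule-like cells 189 and 180 CPM, and intercalated-like cells 155 and 138 CPM. The lowest levels were those of early proximal tubule-like cells, at 96.7 and 114 CPM, and of distal convoluted tubule-like cells, at 62.6 and 78.7 CPM. In macrophage-like cells Pax8 was at 5.7 and 2.8 CPM, with a UMI in 2.27% and 1.45% of them.

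Its relative Pax2 had a different order. In the control library principal or connecting tubule-like cells (253 CPM, 240 to 266) and thin limb-like cells (232 CPM, 219 to 245) led with intervals that overlapped, and in the haplodeficient library they stood at 164 CPM (155 to 174) and 168 CPM (160 to 177), again overlapping. Thick ascending limb-like cells followed at 125 and 129 CPM. Injured tubule-like cells had 82.9 and 74.5 CPM, distal convoluted tubule-like cells 80.6 and 91.6 CPM and intercalated-like cells 76.8 and 104 CPM. Levels were lowest along the proximal tubule, with 33.6 and 53.9 CPM in early cells and 25.1 and 41.3 CPM in late cells. Both paired-box genes were thus higher in injured tubule-like than in early proximal tubule-like cells of the same library, with intervals that did not overlap, while Hnf4a was lower there. This did not hold for Pax8 against late proximal tubule-like cells. There the control intervals overlapped, at 243 CPM in injured and 224 CPM in late cells. In the haplodeficient library Pax8 was lower in injured cells than in the 27 late cells. The late class includes 1 cluster, described below, with 810 and 453 CPM of Pax8. It holds 112 of the 823 late cells of the control and 15 of the 27 of the haplodeficient library.

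**Figure D1:**
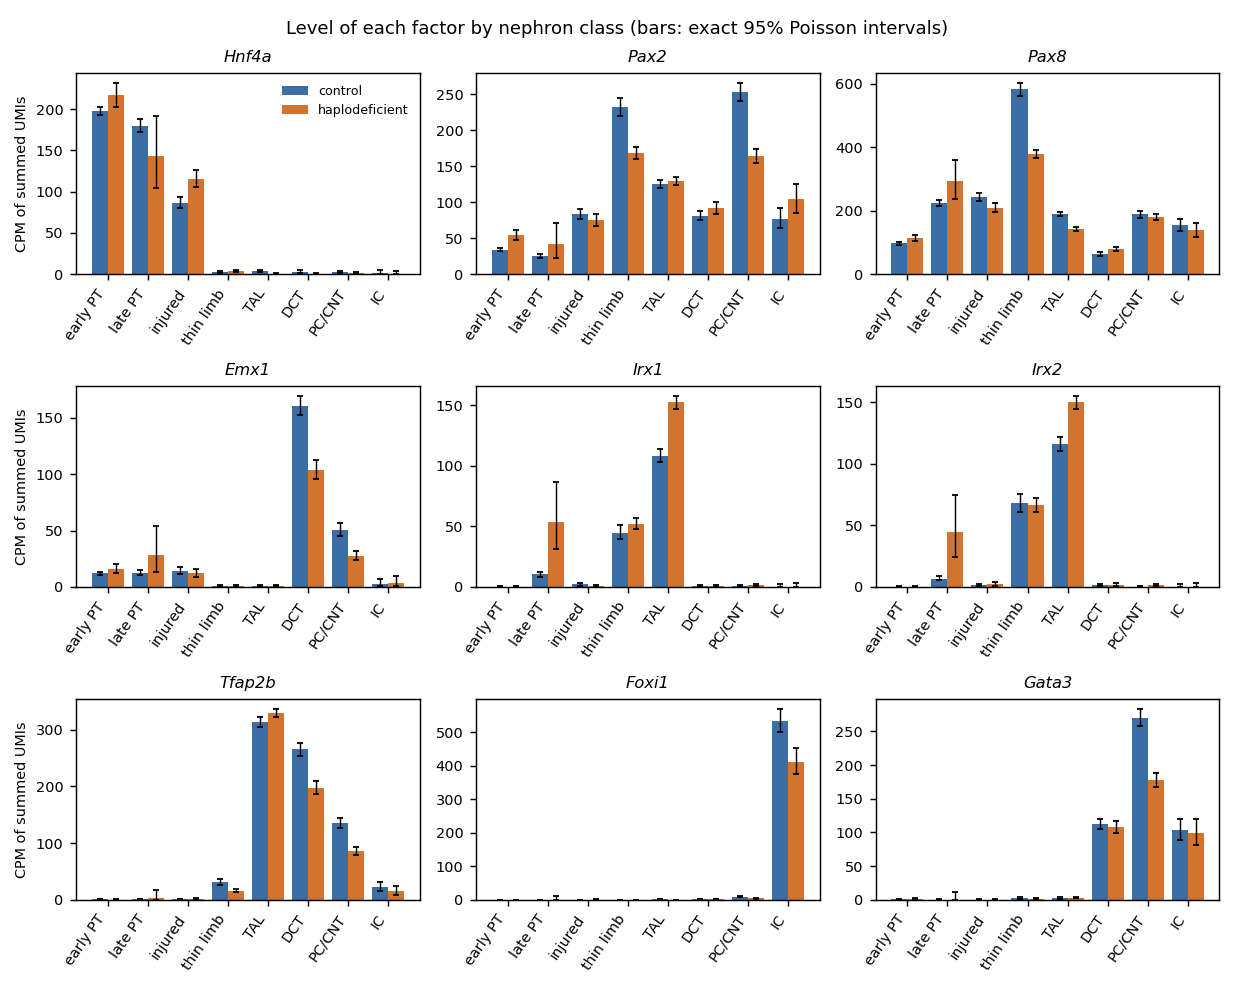
CPM of each factor (linear scale) in the nephron classes of the control and the haplodeficient library, with exact Poisson 95% intervals. Hnf4a falls off sharply after the proximal classes, Foxi1 peaks at 535 and 413 CPM in intercalated-like cells, and Pax8 is present in every named class shown.

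Irx1 and Irx2, the neighbouring Iroquois genes, were both highest in thick ascending limb-like cells. Irx1 had 108 CPM (103 to 114) in control cells and 153 CPM (147 to 158) in haplodeficient cells. For Irx2 the levels were 116 CPM (111 to 121) and 150 CPM (145 to 155). Thin limb-like cells came next, with 44.9 and 52.2 CPM of Irx1 and 67.9 and 66.4 CPM of Irx2. In distal convoluted tubule-like, principal or connecting tubule-like and intercalated-like cells neither gene exceeded 1.9 CPM in either library, and of the intercalated-like cells 0 of 175 and 0 of 107 held a UMI of either gene, where exact upper limits are 2.09% and 3.39%. An exception lay in the late proximal tubule: a cluster led by Akr1c18 and Serpina1f, with 112 control and 15 haplodeficient cells, held 58.7 and 97.5 CPM of Irx1 and 39.9 and 80.3 CPM of Irx2. This cluster also held the highest Pax8 of any tubule cluster of the control, 810 CPM (768 to 854), beside 132 CPM of Hnf4a and 459 CPM of Havcr1. It was found by looking at the levels by cluster.

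Tfap2b, an AP-2 factor needed for distal tubule formation, spanned the next stretch. Thick ascending limb-like cells had 313 CPM (304 to 322) in control cells and 329 CPM (321 to 337) in haplodeficient cells. Distal convoluted tubule-like cells had 265 CPM (254 to 276) and 198 CPM (186 to 209), and principal or connecting tubule-like cells 135 and 86.5 CPM. It was low in thin limb-like cells (30.8 and 16.4 CPM) and in intercalated-like cells (23 and 15.2 CPM), and at 1.0 CPM or less in the early proximal and injured classes.

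Emx1, a homeobox factor, was highest in distal convoluted tubule-like cells, at 161 CPM (152 to 169.5) in control cells and 104 CPM (95.8 to 112) in haplodeficient cells. Principal or connecting tubule-like cells had 50.7 and 27.5 CPM. A lower level, 12.3 and 15.9 CPM in early proximal tubule-like and 14.5 and 12.0 CPM in injured tubule-like cells, stood above the 0.82 and 0.86 CPM of thick ascending limb-like cells and the 0.40 and 0.20 CPM of macrophage-like cells. Emx1 was therefore measured at both ends of the nephron and stood at 0.94 CPM or less in the loop between them.

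Gata3, a zinc-finger factor, was highest among the named nephron classes in principal or connecting tubule-like cells, at 270 CPM (257 to 284) in control cells and 177 CPM (168 to 188) in haplodeficient cells. Distal convoluted tubule-like cells had 112 and 108 CPM and intercalated-like cells 103 and 98.9 CPM, while thin and thick limb classes had between 1.5 and 3.4 CPM. Gata3 is also a factor of T cells and vessel walls, and outside the nephron T cell-like cells had 120 and 86.3 CPM and pericyte or smooth muscle-like cells 125 and 135 CPM. The 17 and 25 urothelium-like cells had 325 and 322 CPM. The 6 T cell markers summed to 2.8 CPM in the control and 15.6 CPM in the haplodeficient principal or connecting tubule-like cells, and 3 and 0 of them were at 0; their part in the Gata3 level was not tested.

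Foxi1, the forkhead factor of intercalated cells, was the most restricted of the group in its levels. Intercalated-like cells had 535 CPM (500 to 571) in control cells and 413 CPM (375 to 453) in haplodeficient cells, and 79.4% (72.7 to 85.2) and 71.0% (61.5 to 79.4) of them held a UMI. Thinned to 1000 UMIs these shares were 33.7% and 26.9%, and of macrophage-like cells 0.13% and 0.15% held a UMI unthinned. Principal or connecting tubule-like cells had 9.8 and 5.0 CPM, and the other named nephron classes 2.4 CPM or less. When intercalated-like cells were split by whether they held more UMIs of type A or of type B markers, Foxi1 stood at 512 CPM (456 to 572) in the 70 type A-leaning and 551 CPM (508 to 597) in the 103 type B-leaning cells of the control. In the haplodeficient library the values were 425 CPM (358 to 500) in 37 cells and 419 CPM (371 to 472) in 63 cells, so the intervals overlapped in both libraries. Of the intercalated-like cells, 31 of 175 and 36 of 107 lay near the line of that split.

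A further cluster of 288 control and 234 haplodeficient cells, led by Slc26a4 and Atp6v1g3, was left without a name. It held markers of 2 cell types: the principal and connecting list summed to 10442 and 8032 CPM against 1856 and 3145 CPM in intercalated-like cells, and the intercalated list to 3931 and 4519 CPM against 9523 and 9604 CPM. Its cells had a median of 28792.5 UMIs, 3.92 times that of their libraries. Foxi1 was at 223 and 183 CPM, Gata3 at 237 and 187 CPM, Pax2 at 209 and 158 CPM and Tfap2b at 133 and 107 CPM. Foxi1 and Gata3 were found together in 86.5% and 81.6% of its cells, where the product of the single shares was 85.2% and 80.4%. After each cell was thinned to 1000 UMIs the shared share was 2.8% and 1.7%, with products of 3.6% and 2.7%. Whether these barcodes are single cells was not tested.

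**Figure D2:**
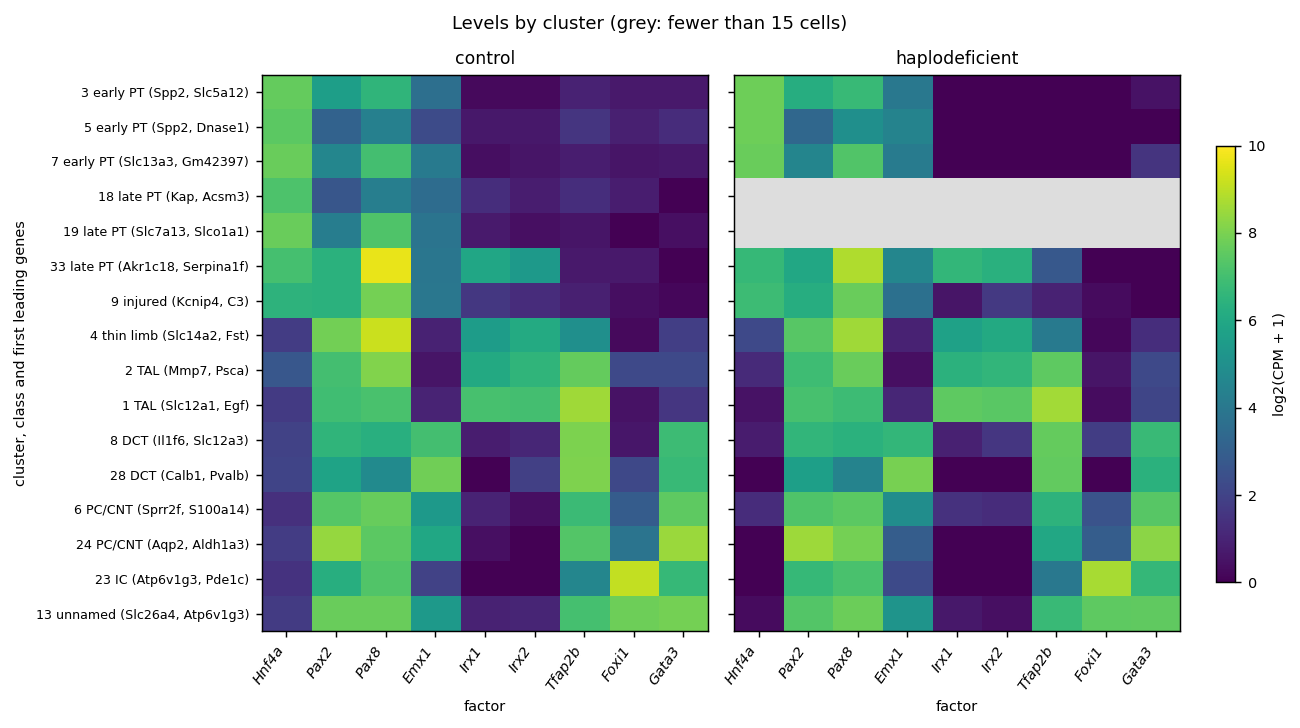
CPM of each factor by nephron cluster and library (colour scale as in its bar), with clusters grouped by class. Within the late proximal class the cluster led by Akr1c18 and Serpina1f stands apart by Pax8, Irx1 and Irx2, and within the thick ascending limb class Tfap2b is at 383 and 390 CPM in the cluster led by Slc12a1 and at 197 and 183 CPM in that led by Mmp7.

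Levels also varied within classes. The thick ascending limb-like class held a cluster led by Slc12a1, Egf and Umod and another led by Mmp7 and Psca, which carried 4 of the 10 markers of the segment. Going from the first to the second cluster in the control library, Tfap2b went from 383 to 197 CPM, Irx1 from 134 to 67.0 CPM and Irx2 from 130 to 93.3 CPM, while Pax8 went from 138 to 275 CPM. The haplodeficient library showed the same order, from 390 to 183 CPM for Tfap2b, 181 to 85.9 CPM for Irx1, 173 to 95.7 CPM for Irx2 and 114 to 209 CPM for Pax8. In the distal convoluted tubule-like class the cluster led by Calb1 and Pvalb had 229 and 248 CPM of Emx1, against 129 and 96.5 CPM in the cluster led by Il1f6 and Slc12a3. In the principal or connecting tubule-like class the cluster led by Aqp2, the water channel of principal cells, had 360 and 307 CPM of Gata3 and 344 and 371 CPM of Pax2, against 185 and 169 CPM and 165 and 150 CPM in the cluster led by Sprr2f and S100a14. Since each pair of clusters was built from the same cells, these are descriptions.

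The shared detection of the Iroquois pair was described cell by cell. In thick ascending limb-like cells 41.8% of the control and 49.7% of the haplodeficient cells held both genes, above the products of the single shares, 30.0% and 35.9%. Thinned to 1000 UMIs the shares were 1.3% and 1.5%, with products of 0.90% and 1.4% that lay inside their intervals. Depth varies between cells and raises joint detection, and its part in the unthinned excess was otherwise not tested. In distal convoluted tubule-like cells Emx1 and Tfap2b were found together in 59.3% and 49.9% of cells, with products of 52.7% and 44.0%. Hnf4a and Pax8 shared 48.3% and 61.2% of injured tubule-like cells, with products of 43.3% and 58.4%.

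The comparison between genotypes asked whether the factors differ within a segment between the haplodeficient and the control kidney. Genes averaging 10 CPM or more, with 30 UMIs or more, were eligible, and a gene was called when its log2 ratio, after 1 CPM was added, was at least 1 in size and its Poisson intervals did not overlap. This is a rule of size and not a test. No factor was called in any of the 9 classes or unnamed nephron clusters with at least 50 cells in both libraries. The share of eligible genes called was 2.45% in early proximal tubule-like cells, where 0 of 4 eligible factors were called. It was 1.83% in injured tubule-like cells (0 of 4), 1.96% in thin limb-like cells (0 of 5) and 1.49% in thick ascending limb-like cells (0 of 5). Among the distal classes the share was 2.06% for the distal convoluted tubule (0 of 5), 2.81% for principal or connecting tubule-like cells (0 of 5) and 3.59% for intercalated-like cells (0 of 5). For the cluster led by Slc26a4 it was 1.75% (0 of 6) and for one led by Tnc and Tagln 1.69% (0 of 2). With so few eligible factors a count of 0 is close to these background shares.

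Ratios of haplodeficient over control levels of the eligible factors, with exact conditional 95% intervals, lay between 0.53 and 1.60 in the named classes. In early proximal tubule-like cells Hnf4a had a ratio of 1.10 (1.02 to 1.18), Pax8 1.18 (1.06 to 1.30) and Pax2 1.60 (1.37 to 1.86). The median of all eligible genes there was a log2 ratio of 0.20, so Hnf4a, at 0.13, lay below it and Pax8, at 0.23, beside it. The median mitochondrial share in these cells was 23.3% and 7.67%, and 10 genes of dissociation stress summed to 3328 and 6400 CPM; their part in the ratios was not tested. Within the early proximal cluster led by Spp2 and Slc5a12, which holds 843 and 146 cells, Pax2 stood at 47.2 and 73.4 CPM. It was at 23 and 22.4 CPM in the cluster led by Slc13a3, a ratio of 0.97 (0.61 to 1.48), and at 7.8 and 9.2 CPM (3 UMIs) in that led by Spp2 and Dnase1, a ratio of 1.18 (0.23 to 3.82). With the same cluster weights the log2 ratio of Pax2 went from 0.67 to 0.50. In injured tubule-like cells Hnf4a had a ratio of 1.33 (1.18 to 1.5), and Pax8 0.86 (0.80 to 0.94).

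**Figure D3:**
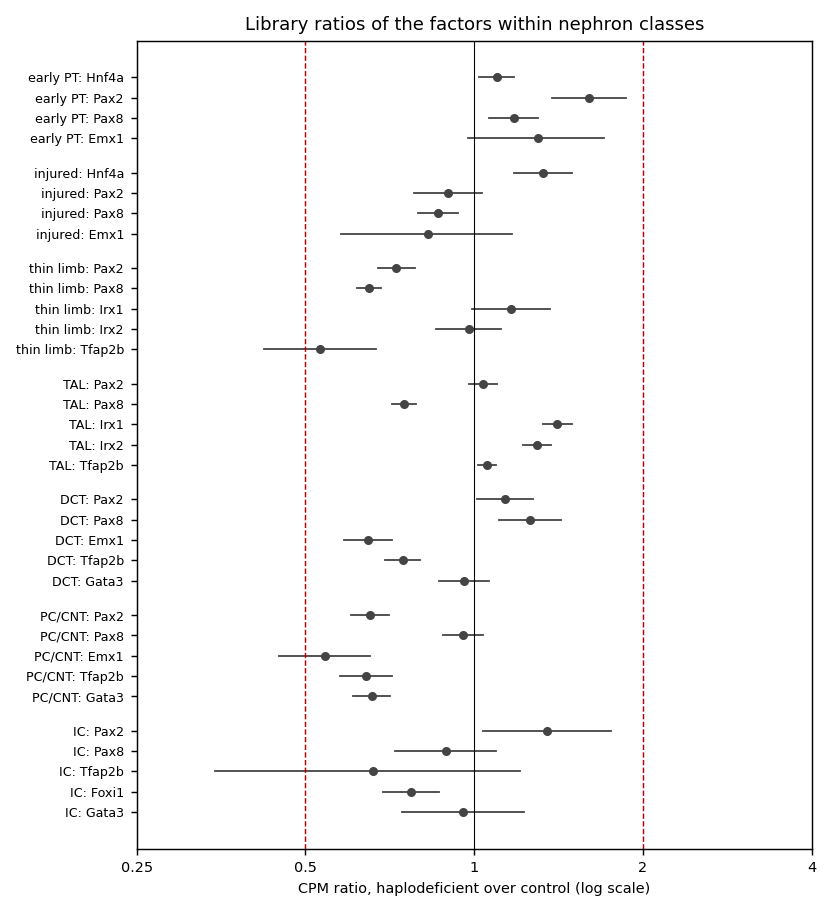
Ratio of haplodeficient over control CPM (log scale) for each eligible factor in each nephron class, with exact conditional 95% intervals and dashed lines at the 2-fold size of the rule. The ratios lie between 0.53 (Tfap2b in thin limb-like cells) and 1.60 (Pax2 in early proximal tubule-like cells).

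Along the loop of Henle, the thin limb-like cells of the haplodeficient library had lower Pax8, with a ratio of 0.65 (0.62 to 0.68), lower Pax2, at 0.73 (0.67 to 0.78), and lower Tfap2b, at 0.53 (0.42 to 0.67), while Irx2 was at 0.98 (0.86 to 1.12). In the same cells the 10 thick ascending limb markers summed to 819 CPM in the control and 380 CPM in the other library, the 7 distal convoluted tubule markers to 413 and 220 CPM, and the 16 proximal tubule markers to 169 and 65.1 CPM; their part in these ratios was not tested. In thick ascending limb-like cells Irx1 had a ratio of 1.41 (1.33 to 1.49), Irx2 1.29 (1.22 to 1.37), Tfap2b 1.05 (1.01 to 1.09) and Pax8 0.75 (0.71 to 0.79). Irx1 kept this direction inside both clusters of the class, at 181 against 134 CPM in that led by Slc12a1 and at 85.9 against 67.0 CPM in that led by Mmp7. Irx2 did so in the first cluster, at 173 against 130 CPM, and stood at 95.7 against 93.3 CPM in the second.

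In the distal classes several ratios moved with the makeup of the class. Principal or connecting tubule-like cells had ratios of 0.66 (0.61 to 0.71) for Gata3, 0.65 (0.60 to 0.70) for Pax2, 0.64 (0.58 to 0.71) for Tfap2b and 0.54 (0.45 to 0.65) for Emx1. The cluster led by Aqp2 held 212 of 509 of these cells in the control and 47 of 622 in the haplodeficient library. With the same weights given to both clusters in both libraries, a setting chosen after seeing the data, the log2 ratio of Gata3 went from -0.61 to -0.17 and that of Pax2 from -0.62 to -0.025. Those of Tfap2b and Emx1 went from -0.64 to -0.62 and from -0.86 to -0.98. In the cluster led by Aqp2 Emx1 was at 6.8 CPM (3 UMIs) against 61.9 CPM (181 UMIs), a ratio of 0.11 (0.02 to 0.33), which was picked out after its values were seen. Distal convoluted tubule-like cells had ratios of 0.65 (0.59 to 0.71) for Emx1 and 0.75 (0.69 to 0.80) for Tfap2b. The cluster led by Calb1 and Pvalb held 201 of 585 of these cells in the control and 19 of 365 in the haplodeficient library, and with the same weights the log2 ratios were -0.25 for Emx1, from -0.62, and -0.42 for Tfap2b, as before. Intercalated-like cells had a Foxi1 ratio of 0.77 (0.69 to 0.87).

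The genes that these factors are known to accompany were read from lists. Listed genes other than transcription factors were not left out of the clustering, so they could shape the classes in which they were read. Slc12a3 and Pvalb were among the leading genes of distal convoluted tubule-like clusters. Egf was one of a thick ascending limb-like cluster and Slc22a8 of an early proximal one. Being eligible there thus carries little weight, and the part of this overlap in the ratios was not tested. Of 7 known FOXI1 targets, all eligible in intercalated-like cells, 1 was called: Slc4a1, the basolateral anion exchanger of type A cells, was lower past the rule, with 83.7 against 192 CPM. The median log2 ratio over the 7 genes was -0.32, beside 0.02 for all genes, of which 3.59% were called. The next list held 7 ion transport and related genes of the distal segment where TFAP2B acts, all eligible in distal convoluted tubule-like cells. There 2.06% of all eligible genes were called. Of the list 4 were lower and 0 higher, with a median of -1.03 beside 0.09. They were Slc12a3, the thiazide-sensitive cotransporter, at 920 against 2625 CPM, Pvalb at 21.2 against 151 CPM, Egf at 39.5 against 281 CPM and Cnnm2 at 65.5 against 135 CPM. The smaller share of the cluster led by Calb1 and Pvalb in the haplodeficient library moves with these values, and its part was not tested. In thick ascending limb-like cells Tfap2b had a ratio of 1.05, and 1.49% of all eligible genes were called. Of this list 2 of 5 eligible genes were lower there and 0 higher. Those were Egf, at 329 against 1152 CPM, and Cnnm2, at 27.2 against 56.5 CPM. Cnnm2 was also lower past the rule in principal or connecting tubule-like (28.9 against 63.2 CPM) and intercalated-like cells (30.4 against 93.3 CPM). Early proximal tubule-like cells had 2.45% of all eligible genes called. Of the 15 HNF4A partners and proximal genes 2 were lower and 0 higher there, with a median of -0.28 beside 0.20. They were the organic anion transporter Slc22a8, at 91.9 against 328 CPM, and the fatty acid receptor Ppara, at 53.9 against 117 CPM. In injured tubule-like cells 0 of 13 were called, beside 1.83% of all eligible genes. These lists are short, and their counts were not tested against the shares of all eligible genes.

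Of 34 other nephron transcription factors, those called between libraries are given beside the share of all eligible genes called. That share was 2.45% in early proximal tubule-like, 1.83% in injured tubule-like and 1.49% in thick ascending limb-like cells. It was 2.06% in distal convoluted tubule-like, 3.59% in intercalated-like, 1.96% in thin limb-like and 2.81% in principal or connecting tubule-like cells. In early proximal tubule-like cells 1 of 18 eligible was higher (Osr2, at 158 against 48.7 CPM) and 1 was lower (Ppara). In injured tubule-like cells 1 of 20 was higher, the epithelial factor Ehf, at 19.2 against 5.5 CPM. Thick ascending limb-like cells had 2 of 23 lower, the nuclear receptor Esrrb at 14.7 against 56.2 CPM and the homeobox factor Prox1 at 9.4 against 26.1 CPM. The same pair was lower in distal convoluted tubule-like cells, also 2 of 23, at 4.6 against 18 CPM for Esrrb and 16.6 against 40.8 CPM for Prox1. Hmx2 was lower in intercalated-like cells, 1 of 22, at 44.7 against 142 CPM. The thin limb-like and the principal or connecting tubule-like cells had 0 of 21 and 0 of 23. Ehf in injured tubule-like cells was eligible only through the haplodeficient library. Prox1 in thick ascending limb-like and Esrrb in distal convoluted tubule-like cells were eligible only through the control. The part of these 3 calls in the counts carries no weight.

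The second comparison set cells with at least 2 Havcr1 UMIs (Havcr1-high) against cells with none (Havcr1-zero) in the same class and library. Both states had at least 50 cells in 5 combinations. Havcr1-high cells were deeper throughout, for example with a median of 24329 against 9869.5 UMIs in early proximal tubule-like cells of the control. Distal convoluted tubule-like cells had 3 and 2 Havcr1-high cells, and principal or connecting tubule-like and intercalated-like cells had 0, so Emx1, Gata3 and Foxi1 could not be described by this state in the segments where they were highest.

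In the early proximal tubule-like cells of the control, 151 Havcr1-high cells had 187 CPM of Pax8 (174 to 201) and 2024 Havcr1-zero cells 79.4 CPM (75.8 to 83.2), a ratio of 2.36 (2.16 to 2.57). Pax8 was the 1 factor of 4 called there, where 5.28% of eligible genes were. Hnf4a was at 200.5 against 197 CPM, a ratio of 1.02, and Pax2 at 37.9 against 32.3 CPM. The Pax8 difference was present in 2 clusters of the class: 226 against 93.8 CPM in that led by Slc13a3 and 134 against 87.4 CPM in that led by Spp2 and Slc5a12. With the same cluster weights its log2 ratio was 0.96. It was 0.73 with doublets kept, 0.77 with a mitochondrial limit of 25%, 0.81 with all genes in the clustering and 0.99 with cells of 1 Havcr1 UMI counted as positive. These 5 values are under the size of the rule. The haplodeficient library had 27 Havcr1-high cells in this class; 16 of them in the cluster led by Spp2 and Slc5a12 had 85.7 CPM of Pax8 and 114 Havcr1-zero cells 117 CPM, a ratio of 0.73 (0.53 to 1.00), against 1.53 (1.31 to 1.78) in the same cluster of the control. Stress genes summed to 5031 and 2950 CPM in the 2 states of the control and the mitochondrial share was 14.8% and 24.6%; their part was not tested.

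Late proximal tubule-like cells of the control had 4 of 6 eligible factors called, where 18.5% of all eligible genes were and the median log2 ratio of all was 0.42. The 101 Havcr1-high cells had 585 CPM of Pax8 against 119 CPM in 658 Havcr1-zero cells, a ratio of 4.92, and 63.6 against 15.7 CPM of Pax2, a ratio of 4.05. Irx1 was at 34.7 against 3.8 CPM and Irx2 at 25.9 against 2.2 CPM, and both were eligible only through the Havcr1-high cells in which they are high, so their part of the count carries no weight. The 10 genes of dissociation stress summed to 6940 against 2822 CPM, 9 of the 10 being called higher, and the mitochondrial share was 11.3% against 21.6%; their part was not tested. Hnf4a was at 161 against 183 CPM, a ratio of 0.88, and Emx1 at 12.2 against 12.5 CPM. Of the 101 Havcr1-high cells 66 lay in the cluster led by Akr1c18 and Serpina1f, and of the 658 Havcr1-zero cells 32 did. Inside that cluster Pax8 stood at 840 against 721 CPM, a ratio of 1.17 (1.00 to 1.36), Pax2 at 90.1 against 70.3 CPM, Irx1 at 54.8 against 73.9 CPM and Irx2 at 41.5 against 42.2 CPM. With the same cluster weights the log2 ratios were 0.24 for Pax8, 0.27 for Pax2, -0.39 for Irx1 and -0.057 for Irx2. Within that cluster none of the 4 ratios reached 2-fold. The Irx2 call was also lost with a mitochondrial limit of 25% (log2 2.36) and with cells classed from their own markers (2.16). That of Pax2 was lost with the latter (0.41) and with the state set from thinned cells (0.63).

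**Figure D4:**
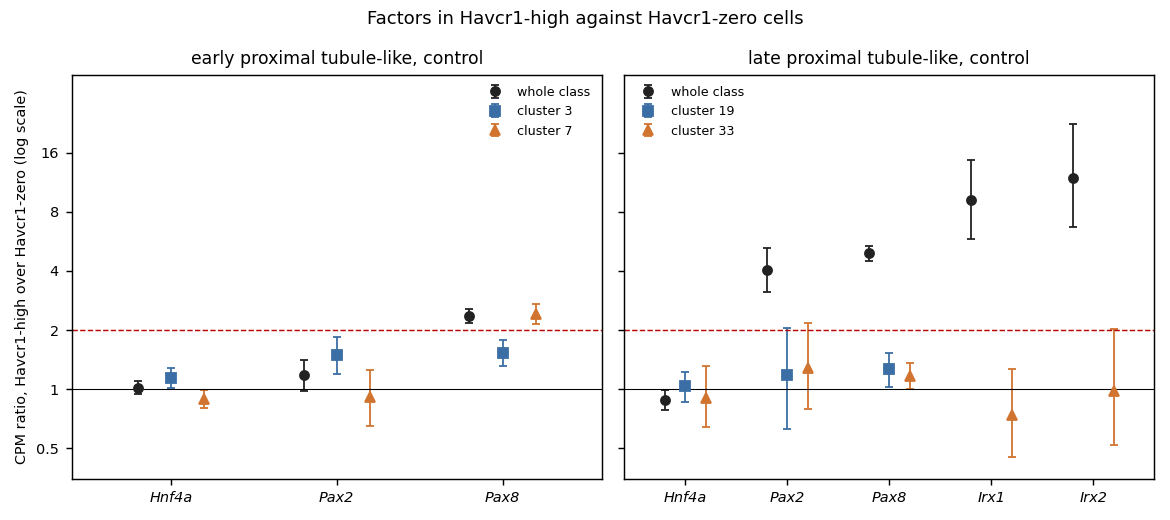
Ratio of CPM in Havcr1-high over Havcr1-zero cells of the control library (log scale) for the whole class and within its clusters, with exact conditional 95% intervals and a dashed line at 2-fold. In late proximal tubule-like cells the class ratios of Irx1 (9.16) and Irx2 (11.96) stand beside 0.74 and 0.98 within the cluster numbered 33, led by Akr1c18, while in early proximal tubule-like cells Pax8 is above 1 in both clusters.

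Injured tubule-like cells were a class led by Kcnip4, C3 and Ubd, which carried 5 of the 11 injury markers measured. They had 0 of 4 factors called in the control, where 2.45% of eligible genes were, and 0 of 4 in the haplodeficient library, where 2.71% were. In the control 301 Havcr1-high cells had 260 CPM of Pax8 and 111 Havcr1-zero cells 170 CPM, a ratio of 1.52 (1.31 to 1.78). In the haplodeficient library 124 and 88 cells had 212 and 200 CPM, a ratio of 1.06 (0.90 to 1.25), so the intervals of both ratios did not overlap; the difference between them was not tested. Hnf4a was at 86.0 and 90.9 CPM in the control and at 114 and 112 CPM in the haplodeficient library. This value depends on how the class is drawn: with each cell classed from its own markers, Hnf4a was called higher in Havcr1-high injured cells of both libraries, with log2 ratios of 2.89 and 3.19, and Gata3 and Tfap2b were called lower. Emx1 was at 12.5 against 24.7 CPM in the control, a ratio of 0.51 (0.32 to 0.81), and at 10.1 against 16.6 CPM in the haplodeficient library, a ratio of 0.61 (0.32 to 1.18). In the control it was called with Havcr1-high set at 5 UMIs (log2 -1.02) and with all genes in the clustering (-1.08).

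Counts for other nephron transcription factors are given beside the share of all eligible genes called between the same states. In the Havcr1-high early proximal tubule-like cells of the control, 4 of 19 eligible were higher and 0 lower, beside 5.28%. These were the repair-associated Sox9 (105 against 12.3 CPM), Irx3 (37.9 against 7.9 CPM), Sox4 (96.5 against 37.8 CPM) and Elf3 (25.6 against 10.7 CPM). Irx3 was eligible there only through the Havcr1-high cells, so its part of the count carries no weight. In the late class 10 of 23 were higher and 0 lower, beside 18.5%, led by Foxc1 (60.7 against 2.8 CPM), Sox4 (150.2 against 9.1 CPM), Sox9 (113 against 7.0 CPM), Ehf (30.8 against 1.5 CPM) and Osr2 (30.3 against 2.2 CPM). These named genes too were eligible only through the Havcr1-high cells. Of the 101 Havcr1-high cells there 66 lay in the cluster led by Akr1c18 and Serpina1f, against 32 of 658 Havcr1-zero cells. The part of this makeup in the count was not tested. Irx3 was the 1 of 19 higher in injured tubule-like cells of the control, at 37.2 against 4.4 CPM, beside 2.45%. In those of the haplodeficient library 0 of 22 were higher and 2 lower, beside 2.71%, Ehf at 1.4 against 74.0 CPM and Foxc1 at 4.2 against 19.5 CPM. In injured tubule-like cells Irx3, Ehf and Foxc1 were eligible only through the state in which they are high, so these counts carry no weight. Of the HNF4A partners and proximal genes, 1 of 15 was lower in the early class, beside 5.28% (Slc22a8, at 131 against 371 CPM). In the late class 4 of 14 were lower, beside 18.5%, among them Slc34a1, the phosphate transporter, at 1037 against 2526 CPM.

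Thin limb-like cells of the haplodeficient library had 1 of 5 factors called, where 3.32% of eligible genes were. Tfap2b was at 1.1 CPM (2 UMIs) in 72 Havcr1-high cells and at 23.4 CPM (133 UMIs) in 509 Havcr1-zero cells, a ratio of 0.05 (0.01 to 0.17). Tfap2b was eligible there through the Havcr1-zero cells alone. The Havcr1-high cells had a median of 16633.5 UMIs against 7500. With doublets kept the log2 ratio went from -3.54 to -1.80, and with the state set from cells thinned to 1000 UMIs it was -4.17 but no longer called. Pax8 was at 428 against 356 CPM, Pax2 at 162 against 179 CPM, Irx1 at 46.0 against 57.0 CPM and Irx2 at 66.8 against 69.0 CPM. In the control, with 47 Havcr1-high cells, Tfap2b was at 16.7 against 36.4 CPM, a ratio of 0.46 (0.28 to 0.71). Of 21 other nephron transcription factors 2 were higher and 0 lower in the Havcr1-high cells of the haplodeficient library, Esrrg at 276 against 108 CPM and Sox9 at 158 against 64.7 CPM.

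This led to a split of the thin limb-like cells by Tfap2b itself, made after these values were seen. In the control 63 cells held a Tfap2b UMI and 256 did not, and in the haplodeficient library 87 and 565, with medians of 21677 and 8591.5 UMIs and of 17770 and 8007 UMIs. Aqp1, the water channel of the descending limb, was at 5.4 CPM in the cells with and 297 CPM in the cells without a Tfap2b UMI of the control, and at 1.9 and 97.8 CPM in the haplodeficient library. Fst was at 22.8 against 425 CPM and at 44.4 against 209 CPM. In the other direction, Cldn10, a claudin of paracellular ion flow, was at 192 against 21 CPM in the control and 192 against 28.7 CPM in the haplodeficient library. The urea transporter Slc14a2 was at 808 against 490 CPM and 671 against 237 CPM. Slc12a1, the cotransporter of the thick limb, was at 33.6 against 6.3 CPM and 44.0 against 7.8 CPM, and the part of thick limb cells in the split was not tested. Pax2 (248 against 223 CPM), Pax8 (526 against 612 CPM), Irx1 (40.7 against 47.2 CPM) and Irx2 (75.4 against 63.9 CPM) differed little between the same cells of the control. Havcr1 was at 42.8 against 140 CPM and at 4.3 against 81.5 CPM.

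**Figure D5:**
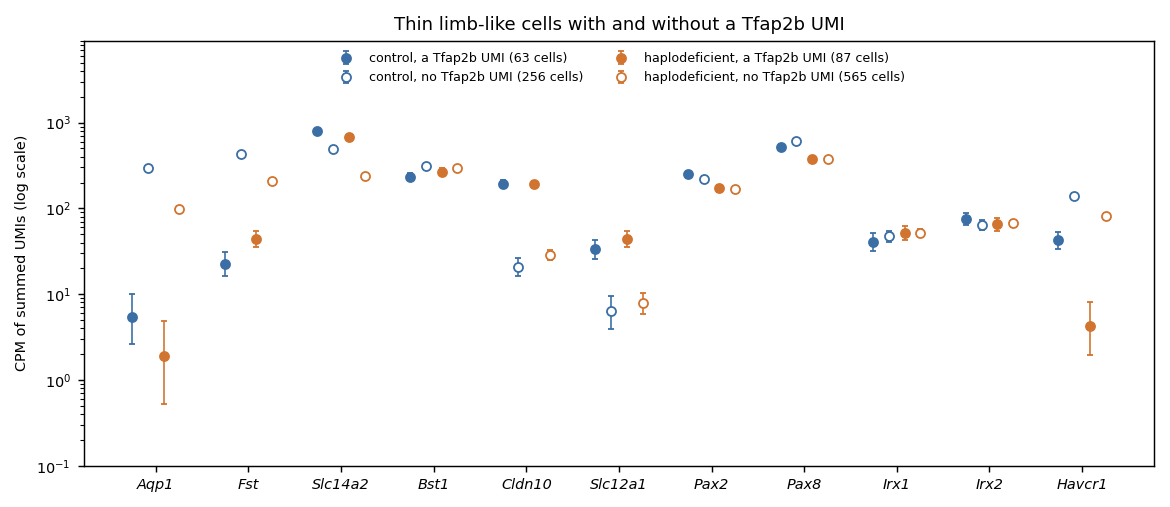
CPM (log scale) of segment genes, other factors and Havcr1 in thin limb-like cells with and without a Tfap2b UMI, by library, with exact Poisson 95% intervals. Aqp1 and Fst are lower and Cldn10 and Slc12a1 higher in cells with a Tfap2b UMI in both libraries, while Pax2, Pax8, Irx1 and Irx2 lie close together.

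For each factor the genes with the most similar pattern were named by Pearson correlation of log2(CPM + 1) over 42 class and library profiles, among 8970 genes of at least 50 CPM in a profile. The profiles share libraries and depth, and the values are descriptions. Hnf4a was most like Mettl7b (0.967), Dao (0.962) and Ugt2b37 (0.960), and Pax2 most like Glis3 (0.953), Gm53 (0.948) and Celsr2 (0.942). Pax8 was close to Cobl (0.958) and Wwc1 (0.951). For Emx1 the genes were Cyp2j11 (0.925), Lhx1 (0.905) and Rnf186 (0.856). Irx1 and Irx2 shared Sim2 (0.903 and 0.904), Clca3b (0.879 and 0.850) and Slc34a2 (0.819 and 0.821), and correlated with each other at 0.932, while Pax2 and Pax8 did at 0.909. Tfap2b was most like Wfdc2 (0.927), Kcnj1 (0.915) and Ephb2 (0.913), and Foxi1 most like Asb15 (0.973), Dmrt2 (0.962) and Gm12121 (0.962). Gata3, spread over nephron and other cell types, had the lowest leading value, with Tesc (0.795), Tox (0.780) and Mpp2 (0.768).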

How the data were processed

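Droplet 3′ libraries of dissociated mouse kidney, 1 per group, were read from raw UMI count matrices that the authors deposited, made with Cell Ranger on mm10 per the submitters' processing notes; the file headers name Cell Ranger 4. Annotation, strand use and the animals behind a library (the labels mention cell hashing) are not given in the sources used here. Barcodes with at least 500 UMIs, 200 genes and at most 50% mitochondrial UMIs were kept (9452 and 10026), and the highest Scrublet scores, 0.8% per 1000 cells (715 and 804), were removed. Cells were clustered with scanpy 1.11.5 (2000 variable genes, 30 components, Leiden resolution 1), leaving out 62 genes (the factors, their relatives, further transcription factors and Havcr1), and gave 44 clusters, 6 unnamed. A class needed 3 markers. UMIs were summed per class and library, with no test, since a group is 1 library. The size rule was tested on simulated data. Named genes were the 9 factors, list genes past the size rule (at most 5 in each direction) and the 3 most similar genes per factor; a few of these are not reported here. The factors and lists were chosen with earlier results of these data known.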

Additional observations from a re-analysis of the deposited data

How the results depend on the processing

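Irx1 and Irx2 in late proximal tubule-like cells and Tfap2b in thin limb-like cells were eligible only through the Havcr1 state in which they are high. Their part of the counts below carries no weight. The share of all eligible genes called under each alternative is not reported here, so these counts have no background beside them. The count of factors called between Havcr1 states was 6. It was 11 with each cell classed from its own markers, where 7 of the calls lay in injured tubule-like cells and those of Pax2 and Irx2 in the late proximal class were lost, 2 with a minimum of 50 CPM, 2 with cells thinned to 1000 UMIs and 1 with the same cluster weights in both states, the last chosen after seeing the data. Under these weights Irx1 and Irx2 in late proximal tubule-like cells reversed, to log2 ratios of -0.39 and -0.057. The count between libraries was 0, and 1 with doublets kept (Tfap2b in early proximal tubule-like cells, -1.19), with free RNA subtracted (Tfap2b in thin limb-like cells, -1.01) and with no minimum of mean CPM (Hnf4a in thick ascending limb-like cells, -1.41). Fewer eligible genes or UMIs lower a count by construction, and the cause of the other shifts was not tested. The count of factors with the same highest class in both libraries, 8, stayed within 1.5 times under each alternative run. No paired analysis was possible because each group is 1 library and no result comes from a test. Cell number limits the values of the 27 late proximal tubule-like and 107 intercalated-like cells of the haplodeficient library.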
